A study of Mus musculus with 40 samples.

Results

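The genes of the cytosolic ribosomal proteins were described in thigh skeletal muscle of 40 male mice, across the 4 combinations of 2 maternal diets and 2 diets after weaning. They were taken from the array's annotation as every gene whose symbol starts with Rpl or Rps and a digit, together with Rpsa, Rplp0, Rplp1 and Rplp2, and without the Rps6k kinases. The symbols gave 66 of the 16593 genes on the array, covered by 84 probes, and each gene was represented by the brightest of its probes over all 40 arrays, whatever its group. The mice were C57BL/6J males, killed at 9 weeks of age, with 10 animals and 10 arrays in each group. HF_HF mice were sons of dams on the high fat (HF) diet and ate HF themselves after weaning, whereas HF_LF mice had HF dams and ate the low fat (LF) diet. LF_HF mice had LF dams and ate HF, and LF_LF mice had LF dams and ate LF. Dams were on their diet from before mating until weaning, so pre-mating, gestational and suckling exposure cannot be told apart. Coconut oil was the main fat of both diets, the sons came from 12 cages, and the RNA came from whole thigh tissue.

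Cytosolic ribosomes are built from a small and a large subunit, each an assembly of ribosomal RNA with many small basic proteins, the Rps proteins of the small and the Rpl proteins of the large subunit. Ribosomal protein genes belong to the most strongly transcribed genes of a mammalian cell. Their mRNAs begin with a run of pyrimidines at the 5′ end, the TOP element, through which the mTOR pathway raises or lowers their translation with nutrient supply, so that the amount of mRNA reports transcription and stability but not how fast these mRNAs are translated. Several members have a paralogue with a narrower tissue range, among them Rpl3l, which is expressed in heart and skeletal muscle.

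The starts of these genes are shown for the members on which the results below turn, because a pyrimidine run and an ETS-type motif near the start are shared features that the selection by name did not use. Sequences are RefSeq's, from mouse build GRCm38.p6, and a window was available for 57 of the 66 members. An unbroken run of at least 8 C or T between 20 bases before and 50 bases after the most upstream annotated start was present in 42 of 57 members (73.7%), against 6835 of 27025 genes with a window (25.3%). The motif CGGAAG, searched on both strands of the window of 250 bases before to 50 bases after the start, was in 39 of 57 members (68.4%) and in 17.2% of all genes, and AAGATGGC was in 6 of 57 members (10.5%) and in 2.87% of all genes. The end of CGGAAG and the start of AAGATGGC are the same letters, so that 1 site can hold both. Each stretch below is 30 bases long, 5′ to 3′ on the strand of the gene, with the pyrimidine run in capitals where there was one. Rpl22, Rpl24 and Rps4x had no such run in the window searched, and their stretch starts 15 bases before the annotated start. Of these, Rpl24 had CGGAAG and Rpl22 had AAGATGGC in the longer window, and Rps4x had neither.
Rpl22, chr4:152324421-152324450, plus strand: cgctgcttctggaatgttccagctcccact
Rpl24, chr16:55966260-55966289, plus strand: agaaagctgttgctaggaaacagactgggc
Rps4x, chrX:102189377-102189406, minus strand: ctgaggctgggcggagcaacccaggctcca
Rps6, chr4:86857349-86857378, minus strand: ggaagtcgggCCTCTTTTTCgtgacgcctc
Rpl22l1, chr3:28805499-28805528, plus strand: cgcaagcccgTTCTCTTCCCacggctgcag
Rpl12, chr2:32961732-32961761, plus strand: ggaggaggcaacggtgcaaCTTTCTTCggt
Rpl31, chr1:39367824-39367853, plus strand: ctcgccacaCCTCTTCCTCCTCgcctcccc
Rps27, chr3:90213632-90213661, minus strand: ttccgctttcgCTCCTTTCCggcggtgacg
Rpl3l, chr17:24727846-24727875, plus strand: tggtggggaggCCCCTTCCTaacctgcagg
Annotated starts may lie some bases away from the starts used in muscle, and a run that is absent from the window says only that these letters are not there.

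Of the 66 members, 59 passed the filter on dim probes, which required an intensity above the array's own median on at least 20 of 40 arrays. These 59 were 35 genes of the large and 24 of the small subunit list. The other 7 (Rpl14, Rpl17, Rpl39l, Rpl6, Rplp2, Rps23 and the retrogene Rps23rg1) were not tested. Their highest intensity on any array was 82.7, that of Rpl6, against an array median of 75.7, so that no level is given for them, although Rpl6, Rpl14, Rpl17, Rplp2 and Rps23 are ordinary ribosome components. The selection by name also holds 1 gene past the filter that is not a ribosome component, Rps19bp1, a protein that binds Rps19, and 5 paralogues past the filter (Rpl3l, Rpl22l1, Rpl36al, Rpl7l1 and Rps27l). The 53 remaining genes are called core genes below. Within groups the members varied with a median SD of 0.12 on the log2 scale (lowest 0.085, highest 0.40), against 0.13 over all 12467 tested probes.

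All muscle arrays carried the markers of fast skeletal muscle at high intensity, with Ckm, the muscle creatine kinase, between 18434.4 and 32250.5 on the 40 arrays. Probes too dim to be tested split the arrays into set 1, with 17 arrays, and set 2, with 23, for which no label accounts. Set 1 held 5 of the HF_HF, 6 of the HF_LF, 4 of the LF_HF and 2 of the LF_LF arrays. LF_LF replicates 2 and 5 were high in lymphocyte markers (mean log2 deviations of 1.00 and 1.25 over 15 genes, against at most 0.15 on any other array), and LF_HF replicate 6 was high in macrophage markers (1.46, with 0.59 in LF_LF replicate 5). Only 2 of the 15 lymphocyte markers, Cd52 and Coro1a, passed the filter. In these bulk samples fewer cells of a type and less RNA per cell cannot be told apart.

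The question whether the HF diet after weaning changed ribosomal protein mRNAs was asked first in sons of LF dams. In LF_HF muscle most members lay slightly below LF_LF muscle, and 2 of 59 were lower past the test, Rpl22 and Rpl24. A gene is said to have passed where limma's two-sided p, adjusted by the Benjamini-Hochberg method over all 12467 tested probes, was below 0.05. In this comparison 4.18% of all tested probes passed, 1.78% as lower and 2.4% as higher, and 0 members passed as higher. The median log2 change over the 59 members was -0.067, against -0.0080 over all tested probes. Of the members 48 of 59 were below 0 (81.4%), against 53.7% of all tested probes. An unadjusted p below 0.05 was found for 14 of 59 members, each of them lower, against 17.4% of all probes in either direction.

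Rpl22 is an RNA-binding protein of the large subunit that is not essential for the ribosome itself. Its intensity was between 632.0 and 860.4 in LF_HF muscle, with a median of 697.0, against 779.3 to 914.3 in LF_LF muscle, with a median of 847.95. The groups overlapped, since 3 LF_HF arrays, replicates 1, 2 and 4, lay among the LF_LF arrays, while the 7 others lay below every LF_LF array. The means were 731 ± 89.7 in LF_HF and 846 ± 44.3 in LF_LF (SD, n = 10 each), a log2 change of -0.22 ± 0.059 (SE; 95% interval -0.34 to -0.096, limma adjusted p = 0.0389).

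Rpl24, a large subunit protein that joins the subunit late and contacts the small subunit, showed a smaller but tighter difference. Its intensity ran from a lowest value of 2940.7 through a median of 3149.5 to a highest of 3282.5 in LF_HF muscle, against 3057.4, 3476.1 and 3624.8 in LF_LF muscle. All 10 LF_HF arrays were below the LF_LF mean, and the groups overlapped only because LF_LF replicate 1, at 3057.4, lay apart below the other LF_LF arrays. The log2 change was -0.13 ± 0.036 (limma adjusted p = 0.0402, 95% interval -0.21 to -0.057).

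Both calls were close to the threshold and hung on single arrays. No member passed when LF_LF replicate 2, 3, 4 or 9 or LF_HF replicate 3, 9 or 10 was left out. Leaving out 1 array in turn, Rpl22 passed in 7 of 20 fits (adjusted p 0.0151 to 0.0762) and Rpl24 in 8 of 20 (0.0130 to 0.0809), and without LF_HF replicate 6 Rps6, Rpl24 and Rps4x passed. Of the 20 arrays of LF_HF and LF_LF mice, 10 came from cages that held both diets. The comparison therefore lies partly between cages, and its p counts cage mates as independent. Without the 3 arrays high in immune markers 0 members passed and the median was -0.042. With the slow fibre score in the fit 0 passed as well, and the median was -0.043. The slow fibre score, the mean log2 deviation of 10 slow fibre genes, was 0.62 ± 0.599 in LF_HF and -0.39 ± 0.957 in LF_LF (SD, n = 10 each), with ranges of -0.31 to 1.43 in LF_HF and -1.65 to 1.20 in LF_LF that overlapped.

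**Figure D1:**
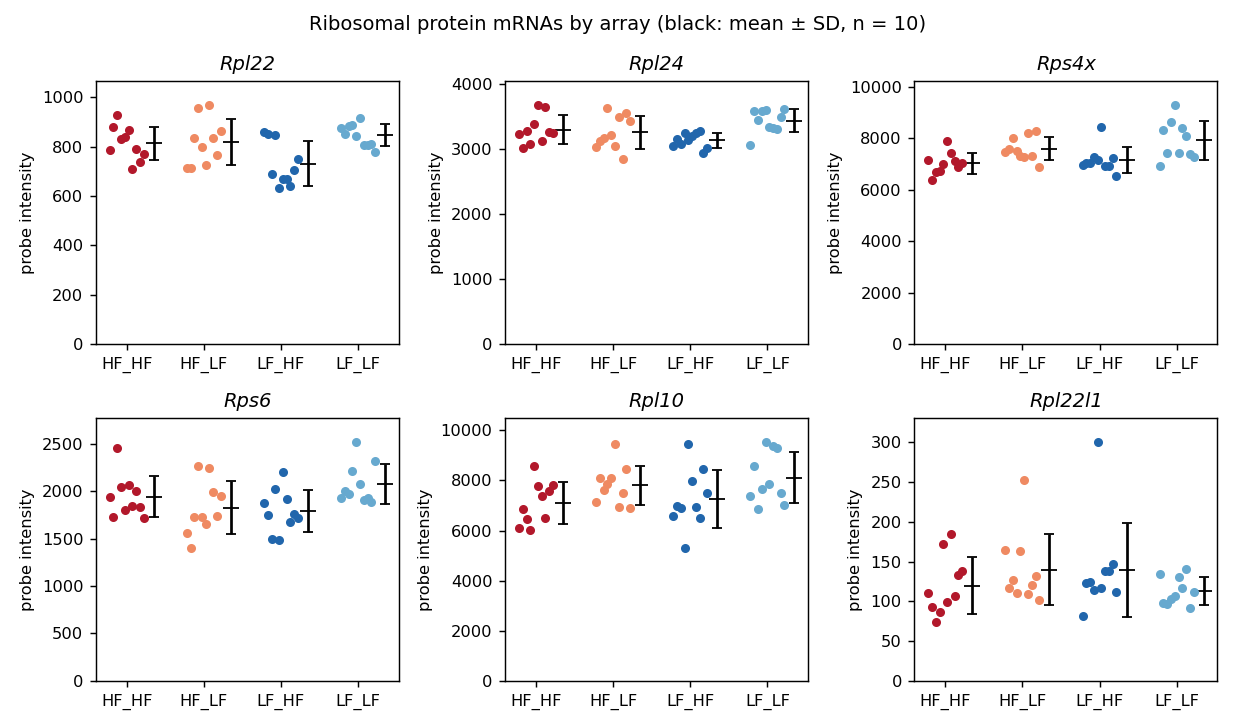
Probe intensity (linear axis from 0) on each of the 10 arrays per group for Rpl22, Rpl24, Rps4x, Rps6, Rpl10 and Rpl22l1, with groups written as dam's diet then own diet and black bars for the mean ± SD. In the Rpl22 panel 7 LF_HF arrays lie below all LF_LF arrays, and in the Rpl22l1 panel 1 LF_HF array (300.9) and 1 HF_LF array (252.8) stand above the rest.

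Among members that did not pass in sons of LF dams, Rps6, the small subunit protein that S6 kinases phosphorylate, had a change as large as that of Rpl22. Its intensities were 1486.8 (lowest), 1752.7 (median) and 2201.5 (highest) in LF_HF muscle and 1890.3, 1983.9 and 2521.5 in LF_LF muscle, a log2 change of -0.22 ± 0.069 (limma adjusted p = 0.0769). The groups overlapped, with 9 of 10 LF_HF arrays below the LF_LF mean. Rps15a, which is read here by a dim probe, differed by -0.15 ± 0.047 (limma adjusted p = 0.0696), and all 10 LF_HF arrays lay below the LF_LF mean. The largest change in size over all members was that of the paralogue Rpl22l1, 0.23 ± 0.150 (limma adjusted p = 0.459), which did not pass and went the other way. Rpl22l1 is also read by a dim probe, with group medians of 109.35 in LF_LF and 123.9 in LF_HF muscle. Genes of the large subunit (median -0.064, 27 of 35 below 0) and of the small subunit (median -0.070, 21 of 24 below 0) had like medians, and the median of the 53 core genes was -0.081. By start-site class, the 37 tested members with a pyrimidine run had a median of -0.084 and the 14 with a window but no run -0.068, and the 36 with CGGAAG had -0.087 and the 15 without it -0.039. These splits were not tested.

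**Figure D2:**
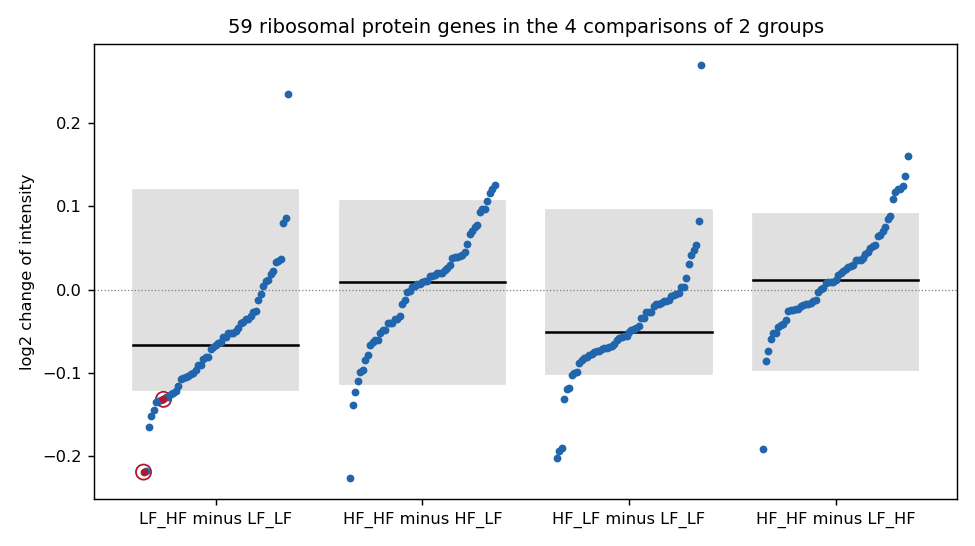
Log2 change of intensity (vertical axis) of the 59 tested ribosomal protein genes in each of the 4 comparisons of 2 groups, with genes sorted by their change, the median as a black line and the 10th to 90th percentile of all 12467 tested probes as a grey box. Red points with a ring passed the test, and they are found only in the first column, LF_HF minus LF_LF (Rpl22 at -0.22 and Rpl24 at -0.13).

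In sons of HF dams the HF diet after weaning was not accompanied by such a shift. Between HF_HF and HF_LF muscle 0 of 59 members passed (limma; 0.361% of all tested probes passed), 2 had an unadjusted p below 0.05 (11.4% of all probes), and the median change was 0.0088 against -0.00031 over all probes, with 25 of 59 members below 0. Rpl22 had a median of 810.7 in HF_HF (711.1 to 927.0) and of 817.0 in HF_LF (712.9 to 968.3), and the groups overlapped throughout. Its log2 change was -0.0029 with a 95% interval of -0.14 to 0.13. For Rpl24 the change was 0.020 with an interval of -0.087 to 0.13. The largest changes in size were Rpl22l1 with -0.23 ± 0.163 (limma adjusted p = 0.651), Rpl10 with -0.14 ± 0.068 (0.443) and Rpl19 with 0.13 ± 0.064 (0.472).

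Whether the response to the diet after weaning differed with the dam's diet was tested as an interaction on all 40 arrays. The interaction passed for 0 of 59 members and for 0 of all 12467 probes (limma). At an unadjusted p below 0.05 it was found for 11 of 59 members (18.6%), each with a positive sign, against 5.19% of all probes. The median interaction was 0.065 over members and 0.0053 over all probes. The LF_LF group enters it with its 2 arrays high in lymphocyte markers. Without LF_LF replicate 5 the median was 0.047, the lowest when 1 array was left out, and without LF_LF replicate 2 it was 0.070. The members also share variation between arrays, so their common sign is not a count of independent genes. The largest in size were Rpl22l1 (-0.46 ± 0.234), Rps6 (0.31 ± 0.109) and Rpl23 (0.24 ± 0.0789), all with limma adjusted p = 0.908. A difference between sons of LF and of HF dams was therefore not shown for any single ribosomal protein gene, including Rpl22 (0.22 ± 0.0875) and Rpl24 (0.15 ± 0.0598), which had the same adjusted p. For Rpl23 the brightest probe changed by 0.11 in sons of HF dams, while its other tested probes changed by -0.037 and -0.068. In sons of LF dams the brightest had -0.13 and the others -0.11 and -0.089.

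The maternal HF diet was examined in sons on either diet. No cage held sons of both dam diets, so every comparison of maternal diets lies between cages. The p-values of the main fits treat cage mates as independent all the same. In sons fed LF, HF_LF against LF_LF, 0 of 59 members passed (limma; 0.016% of all tested probes, that is 2, passed), and 8 had an unadjusted p below 0.05, of which 7 were lower (8.21% of all probes in either direction). The median change was -0.051 over members and -0.00090 over all probes, and 50 of 59 members were below 0, against 50.4% of all probes. Rps2, a small subunit protein at the mRNA entry, had the largest fall in value, with intensities of 6191.0 (lowest), 7829.6 (median) and 9716.5 (highest) in HF_LF muscle and 7937.5, 8856.2 and 10086 in LF_LF muscle. The groups overlapped, with 9 of 10 HF_LF arrays below the LF_LF mean, and the log2 change of -0.20 ± 0.066 did not pass (limma adjusted p = 0.473). Rps6 differed by -0.19 ± 0.078 (0.561) and Rpl22l1 by 0.27 ± 0.128 (0.603). This comparison uses the same LF_LF arrays as the comparison of LF_HF with LF_LF, 2 of which were high in lymphocyte markers, and without the arrays high in immune markers its median was -0.023. Within array set 1, which holds only 2 LF_LF arrays, it was 0.019, and within set 2 it was -0.068.

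In sons fed HF, HF_HF against LF_HF, 0 of 59 members passed (limma; 0% of all tested probes), 6 had an unadjusted p below 0.05, each higher (7.24% of all probes in either direction), and the median was 0.012 over members and 0.0015 over all probes. Rpl22 had the largest positive change, 0.16 ± 0.066 (limma adjusted p = 0.595), with medians of 810.7 in HF_HF and 697.0 in LF_HF. Of the HF_HF arrays 9 of 10 were above the LF_HF mean. Rps21 followed with 0.14 ± 0.053 (0.544), with 9 of 10 arrays above that mean, and Rpl22l1 had the largest negative change, -0.19 ± 0.181 (0.874).

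Over all 40 arrays, with both diets in an additive fit, Rps4x was lower in the 20 HF-fed than in the 20 LF-fed mice and was the only member of 59 to pass (limma; 7.76% of all tested probes passed, 3.3% as lower and 4.47% as higher). Rps4x is the X-linked copy of a small subunit protein. Its intensity was 6378.9 (lowest), 7009.6 (median) and 7875.7 (highest) in HF_HF and 6881.1, 7502.8 and 8273.6 in HF_LF, and it was 6552.0, 7033.7 and 8440.1 in LF_HF and 6913.4, 7762.9 and 9293.9 in LF_LF. Both pairs overlapped, and 18 of 20 HF-fed mice were below the mean of the LF-fed. The means were 7089 ± 452 in HF-fed and 7750 ± 621 in LF-fed mice (SD, n = 20 each), a log2 change of -0.13 ± 0.033 (limma adjusted p = 0.0106), made up of -0.11 ± 0.044 in sons of HF dams and -0.14 ± 0.052 in sons of LF dams, neither of which passed by itself. The call held when any 1 array was left out (adjusted p 0.00349 to 0.0194) and was lost with the slow fibre score in the fit (-0.096, adjusted p = 0.0898, in a range of 0.00860 to 0.0898 over 8 alternatives). Rpl10, which is added among the last proteins of the large subunit, had -0.15 ± 0.055 (adjusted p = 0.0824) and Rpl39 -0.11 ± 0.048 (0.152). The median over members was -0.042, against -0.0052 over all probes, and 44 of 59 were below 0. An unadjusted p below 0.05 was found for 10 of 59 members, 8 lower and 2 higher, against 21.1% of all probes. For the pooled maternal diet 0 of 59 members passed (limma; 0.594% of all probes passed), 2 had an unadjusted p below 0.05 (9.96% of all probes), and the median was -0.017. The largest pooled maternal changes were Rpl7a with -0.13 ± 0.058 (limma adjusted p = 0.431), Rps2 with -0.11 ± 0.047 (0.404) and Rps26 with -0.071 ± 0.037 (0.525).

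The 3 members with the largest pooled falls, Rpl10, Rps4x and Rpl39, all lie on the X chromosome, which was noticed after their values had been seen and is given as a description. The 4 X-linked members past the filter, these and Rpl36a, had a median pooled change with the HF diet after weaning of -0.12, against -0.030 for the 55 autosomal members. Over all 350 tested probes of X-linked genes the median was -0.027 and 67.4% were below 0, against 53.4% of all tested probes. In sons of LF dams the medians were -0.13 for the 4 X-linked and -0.063 for the 55 autosomal members, and in sons of HF dams -0.10 for the X-linked and 0.010 for the autosomal members.

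The paralogue pairs were followed across arrays after group means had been removed. Rpl22 and Rpl22l1, which Rpl22 protein is known in mice to repress, ran in opposite directions, with Pearson's r = -0.61 (permutation p = 4e-05, adjusted over 4 pairs 0.00016) and Spearman's rho = -0.63 (permutation p = 6e-05, adjusted 0.00024) over 40 arrays. Without the 2 arrays farthest from the median of Rpl22 r was -0.56, within array set 1 it was -0.42 and within set 2 -0.74, and without the arrays high in immune markers it was -0.63. By group r was -0.74 in HF_HF, -0.62 in HF_LF, -0.65 in LF_HF and 0.018 in LF_LF, where Rpl22 spanned only 779.3 to 914.3. The array with the highest Rpl22l1 intensity, LF_HF replicate 5 with 300.9, was also the array with the lowest Rpl22 intensity, 632.0. The probe of Rpl22l1 is dim, with group medians of 109.15 to 124.3. Its lowest value was 74.7, where the median intensity over all probes was 75.7. Cage mates are not fully independent, and over the means of 12 cages r was -0.77, beside -0.58 for Rpl3 and Rpl3l, -0.51 for Rpl36a and Rpl36al and -0.017 for Rps27 and Rps27l. Over the 40 arrays the relation was not detectable for the 3 other pairs, with r = -0.17 for Rpl36a and Rpl36al (permutation p = 0.302), -0.066 for Rpl3 and Rpl3l (p = 0.685) and -0.065 for Rps27 and Rps27l (p = 0.692), and adjusted p of 0.604 to 0.692.

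**Figure D3:**
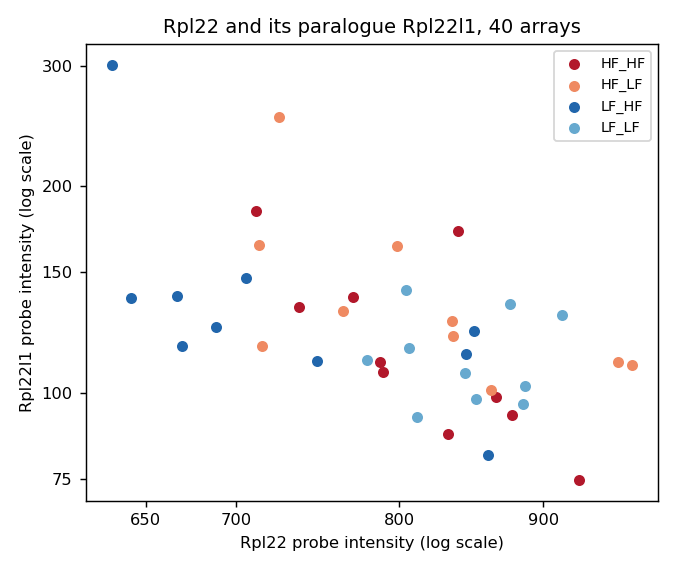
Probe intensity of Rpl22l1 (vertical) against that of Rpl22 (horizontal), both on log axes, with 1 point per array and colours for the 4 groups. Arrays with low Rpl22 tend to have higher Rpl22l1 (r = -0.61 after group means were removed), with exceptions and not within LF_LF (r = 0.018). The point at the upper left is LF_HF replicate 5.

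Rpl3 and its striated muscle paralogue Rpl3l behaved differently from each other on single arrays. Rpl3 was highest on LF_LF replicate 5 (3152.9), LF_HF replicate 6 (2566.3) and LF_LF replicate 2 (2378.1), and at most 1805.1 on the other 37 arrays. These are the 3 arrays high in immune markers. Rpl3l on the same arrays had 16067.2, 15262.7 and 17335.6, within its overall range of 14640.8 to 19451.1. Neither gene passed in a comparison: in sons of LF dams the log2 change was -0.10 ± 0.152 for Rpl3 (limma adjusted p = 0.786) and for Rpl3l -0.039 ± 0.047 (0.721), and in sons of HF dams it was -0.067 ± 0.075 (0.793) and 0.041 ± 0.041 (0.767). The paralogues Rps27l and Rpl36al did not pass either, with changes in sons of LF dams of -0.013 ± 0.064 and -0.067 ± 0.044, nor did Rps27 (-0.10 ± 0.042, adjusted p = 0.192) and Rpl36a (-0.12 ± 0.074, 0.419).

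Further members with a known role of their own did not pass in any comparison of diets. Rplp0 and Rplp1, which belong to the stalk that recruits translation factors, had log2 changes in sons of LF dams of -0.027 ± 0.057 (limma adjusted p = 0.854) and 0.0042 ± 0.037 (0.970). Rplp0, often used as a reference transcript, had group medians of 243.4 in HF_HF, 240.25 in HF_LF, 239.6 in LF_HF and 243.45 in LF_LF. Rpl5, which with Rpl11 can bind Mdm2, had -0.10 ± 0.063 (0.450), and Rps19, a small subunit protein whose loss causes anaemia in man, had -0.032 ± 0.075 (0.873). Rpsa, also known as the laminin receptor, was above the array's median on only 24 of 40 arrays and had 0.019 ± 0.060 (0.911). Rps19bp1 had 0.080 ± 0.050 (0.446). Fau, a ribosomal protein gene outside the naming rule, had -0.12 ± 0.063 in sons of LF dams (0.322) and 0.085 ± 0.068 in sons of HF dams (0.697).

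The members moved together only in part. After group means were removed, the correlation of a member with the mean of the other members over 40 arrays had a median of 0.39, with 16 of 59 members at 0.5 or above and 7 below 0, while over 8628 other genes the median correlation with the members' mean was -0.017 and 0.475% were at 0.5 or above. The arrays share normalisation and hybridisation, and the values are a description. Most like the mean of the others were Rps16 (r = 0.78), Rpl12 (0.78), Rpl31 (0.73) and Rps27 (0.71). Least like it were Rpl21 (-0.30), Rps19bp1 (-0.28), Rpl3l (-0.18) and Rps15a (-0.12), followed by Rpl22 with -0.12. Of these, Rpl21, Rps19bp1 and Rps15a have dim probes, with highest intensities of 118.1, 122.9 and 181.6. Between pairs of members the median correlation was 0.15. It was also 0.15 between the brightest and the second probes of the same member gene, so low values cannot be told from probe noise. The first principal component of the 59 members held 36.0% of their variance. The component was taken on unscaled log2 values, so members with a large spread weigh more in it. Rps3a1 and Rpl22l1, for example, had within-group SDs of 0.40 and 0.39, against a median of 0.12.

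**Figure D4:**
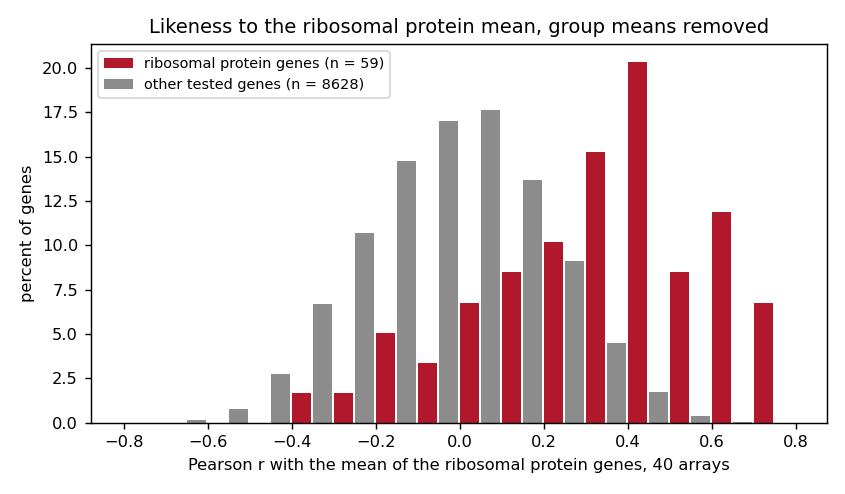
Percent of genes (vertical axis) by Pearson's r with the mean of the ribosomal protein genes over 40 arrays (bins of 0.1, group means removed), for the 59 ribosomal protein genes and for 8628 other tested genes. The ribosomal protein genes have a median of 0.39 and a tail of 7 genes below 0, whereas the other genes are centred near 0.

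Outside the naming rule the genes whose pattern was most like the members' mean were Tmem176b (r = 0.67), Nt5c (0.67), Nubp1 (0.66), Ssr4 (0.63), Cpne2 (0.63), Fam111a (0.60), Otud5 (0.60) and H2-Aa (0.59), over 40 arrays. H2-Aa is a class II histocompatibility gene of antigen-presenting cells, Ssr4 a subunit of the translocon-associated complex of the endoplasmic reticulum, and Nubp1 a factor of cytosolic iron-sulphur assembly. Without the 3 arrays high in immune markers r was 0.45 for Tmem176b, 0.51 for Nt5c, 0.49 for Nubp1, 0.64 for Ssr4 and 0.31 for H2-Aa. The lymphocyte score had r = 0.52 with the members' mean over 40 arrays and 0.029 without these 3. The slow fibre score had r = -0.38 and -0.42. The members' own median correlation was 0.32 without these arrays.

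By array, the mean log2 deviation of the 59 members lay between -0.075 and 0.17. It was -0.0071 ± 0.0509 in HF_HF and -0.0065 ± 0.0460 in HF_LF, and it was -0.025 ± 0.0428 in LF_HF and 0.038 ± 0.0624 in LF_LF (SD, n = 10 each). The highest array was LF_LF replicate 5 with 0.17, then HF_HF replicate 6 with 0.096 and LF_LF replicate 2 with 0.093, so that 2 of the 3 highest arrays were those high in lymphocyte markers. All groups overlapped.

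**Figure D5:**
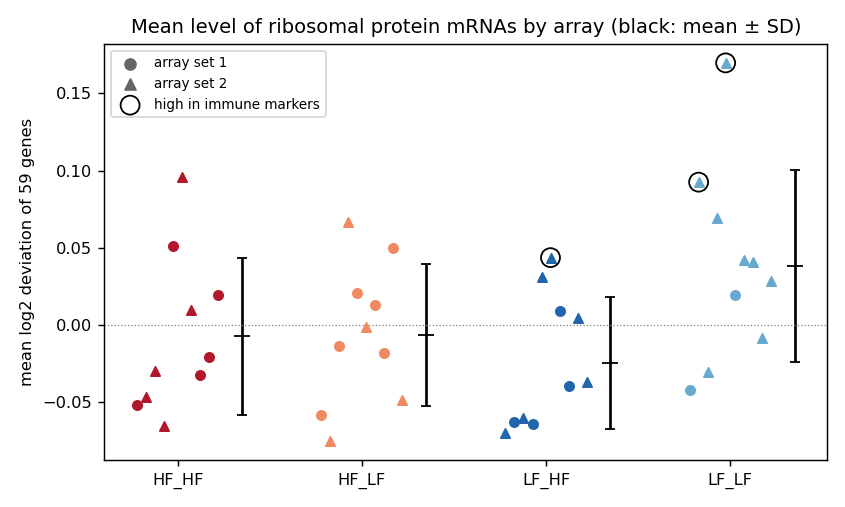
Mean log2 deviation of the 59 ribosomal protein genes on each array (vertical axis, relative to the mean of all 40 arrays), by group, with circles for array set 1, triangles for set 2, rings around the arrays high in immune markers and black bars for the mean ± SD. LF_LF replicate 5 is highest at 0.17, and LF_LF has the highest group mean, 0.038.

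The array sets and the slow fibre score were also tested across the members, with group in the fit on 40 arrays. Between set 1 and set 2, 3 members were higher and 3 lower in set 1 past the test (Rpl19, Rpl21 and Rpl23a higher, Rpsa, Rpl5 and Rpl7a lower), a share of 6 of 59 where 28.1% of all tested probes passed. The largest was Rpsa with a log2 difference of -0.25 ± 0.0388 (limma adjusted p = 2.3e-06). The sets were themselves split on dim probes of these same arrays. Rpsa is also dim, above the array's median on only 24 of 40 arrays, so its p is no independent measure of a difference between the sets. With the slow fibre score, 50 of 59 members had a negative slope, and Rps26 (-0.071 ± 0.0200 per unit of score, adjusted p = 0.0464) and Rpl36al (-0.069 ± 0.0178, adjusted p = 0.0254) passed, where 2.21% of all probes passed, 0.449% as negative. The median slope of the members was -0.025, against -0.0045 over all probes.

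A second probe past the filter was present for 9 member genes, with 10 such probes. Their correlation with the brightest probe over 40 arrays had a median of 0.15 and was 0.5 or above for 2, the second probes of Rps3 (0.64) and Rpl31 (0.52). It was lowest for Rps9 (-0.40). In sons of LF dams 7 of 10 second probes had the sign of the brightest, but several of them were close to 0. The change was -0.0024 for Rpl38, against -0.12 by the brightest probe, and -0.010 for Rpl31, against -0.049. For Rps3 it was -0.085 against -0.081, and for Rpl23 -0.11 and -0.089 against -0.13. The second probes ran from -0.11 to 0.040, and the shift of the members was not tested in them. The genes that passed, Rpl22, Rpl24 and Rps4x, had 1 probe each, so that no second probe could be compared. Ribosomal protein genes have many near-identical processed pseudogenes, and whether a probe also reads such copies was not tested.

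Of the other genes of the translation machinery and its control, 3 passed in sons of LF dams, where 4.18% of all tested probes passed. There, Eif5, an initiation factor that triggers GTP hydrolysis on the scanning ribosome, was lower (-0.23 ± 0.0517, limma adjusted p = 0.0144) and was the only one of 24 initiation factor genes to pass. Of 18 genes of mTOR signalling and growth control, 2 passed as lower and 0 as higher, while 13 of the 18 were below 0 and 5 above. Those that passed were Eif4ebp1, a repressor of cap-dependent initiation (-0.32 ± 0.0888, 0.0455), and Maf1, a repressor of RNA polymerase III (-0.16 ± 0.0447, 0.0389). Of 34 ribosome biogenesis genes 0 passed in any of the 7 comparisons, and their median in sons of LF dams was -0.0013. Of 11 elongation and release factors 0 passed in sons of LF dams (median -0.031). A list of 16 genes with TOP mRNAs, 10 of which (Eef2, Pabpc1, Npm1, Fau and others) are also counted above, had 0 that passed in any comparison and a median of -0.050 in sons of LF dams. In sons of HF dams and in both maternal comparisons of 2 groups 0 genes of these 5 lists passed. Few probes of any kind passed there: 0.361% in sons of HF dams, 0.016% for the maternal diet in sons fed LF and 0% in sons fed HF. Over both dam diets, the HF diet after weaning went with lower Eif5 (-0.14 ± 0.0422, adjusted p = 0.0277), Eif3l (-0.074 ± 0.0239, 0.0444) and Eef1a2, the elongation factor isoform of adult muscle (-0.12 ± 0.0323, 0.0152), and with higher Mtor (0.16 ± 0.0450, 0.0221). Among all tested probes 7.76% passed in that comparison. The pooled maternal HF diet, where 0.594% of all tested probes passed, went with lower Ddit4l, an inhibitor of mTOR signalling (-0.46 ± 0.0944, 0.0120). This comparison lies wholly between cages, and its p counts cage mates as independent.

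Markers of other cell types and fibres in the same comparison of LF_HF with LF_LF are given beside these values. Among all tested probes 4.18% passed in it, 2.4% as higher and 1.78% as lower. The fits with the slow fibre score and without the arrays high in immune markers stand with the calls of Rpl22 and Rpl24, and the part of the other marker lists in the ribosomal protein result was not tested. Of 10 slow fibre genes 3 passed as higher (Csrp3, Atp2a2 and Mb), with a median of 1.08, and 10 of 10 were above 0. Of 10 endothelial genes 3 passed as higher (Eng, Emcn and Flt1), with a median of 0.11. Of 14 skeletal muscle genes Tpm1 passed as higher (0.28 ± 0.0488, limma adjusted p = 0.00212) and Actn3, the fast fibre actinin, as lower (-0.16 ± 0.0425, 0.0309). Of 5 white adipocyte genes 0 passed and 5 were below 0, with a median of -0.58. In the pooled comparison of diets after weaning, in which Rps4x passed, the adipocyte genes Cidec (-0.76 ± 0.224, 0.0265) and Car3 (-0.43 ± 0.0963, 0.00303) were lower, as was Actn3 (-0.15 ± 0.0327, 0.00293), and Tpm1 was higher (0.15 ± 0.0477, 0.0488), and the same 3 slow fibre genes passed as higher. The endothelial genes Emcn (0.26 ± 0.0419, limma adjusted p = 5.3e-05), Eng (0.28 ± 0.0509, 0.000302) and Egfl7 (0.19 ± 0.0489, 0.0114) passed as higher in that pooled comparison too. Between LF_HF and LF_LF muscle both tested lymphocyte genes were below 0 (median -0.44). Of 14 macrophage genes 13 were above 0 there (median 0.11), and 0 genes of the lymphocyte and macrophage lists passed.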

How the data were processed

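Total RNA from thigh muscle of 40 male C57BL/6J mice was hybridised to Illumina MouseRef-8 v2.0 beadchips, 1 array per animal. The submitters' processing notes name BeadStudio, with no version. Signals were quantile-normalised over the muscle arrays by the authors, who deposited probe intensities on a linear scale, with background still in them (lowest 47.2), which compresses the fold changes of dim probes. Precision is limited by the number of arrays, 10 per group. There were 0 further columns of sample values. Other tissues and methylation were not analysed here.

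Animals were grouped by the labels for maternal and own diet. Of 25697 probes 23978 had 1 gene symbol in the platform annotation, 1719 had none, and 11 gene identifiers were not in the gene table of GRCm38.p6. Log2 intensities were tested, without an offset, for the 12467 probes above their array's median on at least 20 of 40 arrays. Pairs of groups were fitted on 20 arrays, pooled and interaction effects on 40, with limma 3.58.1 (R 4.3.3; lmFit, eBayes with an intensity trend) and Benjamini-Hochberg adjustment over all tested probes. The code was tested on simulated data. Correlations of paralogues used 100000 permutations, two-sided (Python 3.11.15, numpy 2.4.6, pandas 2.3.3).

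Genes were named by a rule: members that passed, the 3 largest changes in a comparison, the 4 members most and the 4 least like the others, listed roles, up to 6 passing genes of a pathway list, and the 8 other genes most like the members. Members, lists and rule were chosen with earlier results of these data known. X-linkage and the fifth-lowest correlation were added after the values were seen. Marker scores are mean log2 deviations over a list, and arrays above 0.5 in an immune list were called high. Array sets were split at the largest gap on the first component of untested dim probes (-4.36 to 2.17). Alternatives covered the filter, offset, background, variance model, array set, cages, marker scores, all probes of a gene and single arrays. Animals of 1 cage were treated as independent in the main fits.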

Additional observations from a re-analysis of the deposited data

Results flagged for a closer look

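Of the 128 sets of 10 arrays tested, that is each of 31 named members and the mean over all members in each group, 16 (12.5%) held an array whose gap to its nearest neighbour was over 0.466 of the group's whole range, where chance flags about 1 in 20.
In LF_HF muscle, replicate 5 had a Rpl22l1 intensity of 300.9 (the other 9 arrays 81.2 to 147.0), a Rpl36a intensity of 1756.9 (1262.5 to 1474.5) and a Rps21 intensity of 4626.6 (5415.6 to 6282.3). Replicate 6, in which macrophage markers were high, had 2566.3 for Rpl3 (1111.6 to 1565.9), 6739.6 for Rpl36al (5604.4 to 6161.5) and 8440.1 for Rps4x (6552.0 to 7271.2). Replicate 3 had 2992.6 for Rpl12 (3458.3 to 3769.1).
In LF_LF muscle, replicate 1 had 3057.4 for Rpl24 (3311.9 to 3624.8), replicate 4 had 303.9 for Rplp0 (221.7 to 255.4), and replicate 5, the array highest in lymphocyte markers, had 23889.2 for Rplp1 (19212.9 to 21330.3).
In HF_LF muscle, replicate 2 had 27298.6 for Rplp1 (18908 to 22027) and 283.9 for Rpl7l1 (344.6 to 404.9), replicate 6 had 252.8 for Rpl22l1 (101.2 to 164.1), and replicate 9 had 3509.5 for Rps16 (2734 to 3121.9). In HF_HF muscle, replicate 3 had 2455.1 for Rps6 (1712.4 to 2063.1) and replicate 8 had 10438.2 for Rps2 (7614.9 to 8755.7).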

How the results depend on the processing

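The counts of members that passed were small and moved with the processing, and the cause was not tested. In sons of LF dams, where 2 passed, 0 passed without the filter on dim probes, without the arrays high in immune markers, with the slow fibre score in the fit and in cages holding both diets, and 1 passed with array set as a block and with all 40 arrays in 1 fit. Over these and 4 further alternatives Rpl22 had an adjusted p of 0.0314 to 0.325 (past the threshold in 6 of 10) and Rpl24 of 0.0399 to 0.234 (4 of 10). Leaving out single arrays gave 0 to 3 members, with 0 without LF_LF replicate 2, 3, 4 or 9 or LF_HF replicate 3, 9 or 10, and 3 without LF_HF replicate 6. The median of the members stayed below 0 in each of these fits (-0.093 to -0.023, the smallest within array set 1). In the pooled comparison of diets after weaning 0 passed with the slow fibre score in the fit, against 1, and 1 to 2 when single arrays were left out, Rpl10 joining without HF_HF replicate 5 or LF_HF replicate 5. The median for the maternal diet in sons fed LF was 0.019 within array set 1, against -0.051. The pooled maternal median was 0.0059 without the arrays high in immune markers, against -0.017. The other 5 comparisons stayed at 0 calls when single arrays were left out, while their medians lay between -0.0099 and 0.017 for the diet after weaning in sons of HF dams and between -0.00057 and 0.025 for the maternal diet in sons fed HF, both changing sign, between -0.064 and -0.033 for the maternal diet in sons fed LF, between -0.022 and -0.0028 for the pooled maternal diet, and between 0.047 and 0.080 for the interaction. Of the values for single named genes under an alternative, 777 kept their direction and their side of the threshold, 36 kept the direction but no longer passed, 3 came to pass and 0 changed direction. Most of these fits left out only 1 array, and the fits within 1 array set were not counted. The genes were those that passed or had the largest changes, so these counts say little about how stable directions are. Array set, lymphocyte content and slow fibre content overlap with the diet groups in part and cannot be fully told apart from them with 10 arrays a group. No paired analysis was possible because the labels give no replicate numbers, and those used here only name animals in accession order. The labels do give cages, and with cage as a block, in the cages that held both diets, 0 members passed in sons of LF dams (2 cages, 10 arrays, median -0.093) and in sons of HF dams (3 cages, 13 arrays, median 0.011).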
